A study of Mus musculus with 36 samples.

Results

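Glucose transport, glycolysis and glycogen metabolism were followed as a set of 34 genes through the development of the mouse heart. The members were chosen by name, from the facilitative glucose transporters through the glycolytic enzymes to lactate export and the glycogen enzymes, by a rule that uses no measured value, although earlier results of these data were known when the set was drawn up. Each gene was read from the probe sets annotated to its symbol alone, and the probe set with the highest mean over all 36 arrays stood for it. Of the 34 genes, 31 had such a probe set and all 31 were tested, out of 12984 genes and 27259 probe sets tested in the whole series. Gpi1, Eno1 and Pfkfb1 were not analysed here.

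The arrays carried total RNA of C57BL/6 embryos from timed matings, with no allele or agent named for any group. There were 12 groups of 3 arrays. At embryonic day (E) 10.5 and E11.5 the sample was the middle part of the embryo with the heart, left after the head and tail ends were cut away, although another label of the same samples calls it the whole heart. From E12.5 the hearts had been divided into ventricular and atrial chambers, sampled daily up to E14.5 and then at E16.5 and at E18.5. The samples named E16.5 in their titles carry day 15.5 in their descriptions, and the day of the titles is used. Nothing in the labels says whether the 3 arrays of a group came from separate embryos or litters, or whether embryos were pooled, so the p-values below measure the spread between these samples, which may be technical.

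Cells take up glucose through carriers of the Slc2a family, trap it by phosphorylation with hexokinase, and split it through the steps of glycolysis to pyruvate, which lactate dehydrogenase turns into lactate for export or mitochondria oxidise. Most of these steps are served by several isoforms from separate genes, some found in nearly all cells and others mainly in muscle, and the muscle forms are a known feature of contractile tissue. The embryonic heart is known to depend strongly on glucose and glycogen, and the newborn heart to turn to fatty acids.

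Values are the deposited linear intensities, which have the same trimmed mean on each array, and depth has no meaning beyond the number of arrays. Chamber markers went with the labels on average: all 5 ventricular genes tested were lower and all 5 atrial genes higher in atria over the 5 ages. Ventricular genes were high on 5 atrial arrays (E12.5 atrium 2, E14.5 atrium 1 and 2, E16.5 atrium 2 and E18.5 atrium 1), where their sum lay between 24289 and 40442, against 3576 to 15808 on the other 10 atrial arrays and 34200 to 54936 on the ventricular arrays. On E14.5 atrium 1 the ventricular transcription factor gene Irx4 read 1281, against 1485, 1803 and 1706 on the ventricles of that day. The counts and the largest values of the chamber comparison are therefore also given without these 5 arrays. Atrial genes also varied among ventricular arrays, with sums of 9607 to 16919 at E12.5 and 5072 to 11944 at E18.5, against 15639 to 38943 in atria. The atrial gene Myl7 read 12474, 8621 and 15526 on the E12.5 ventricles and 9135, 4792 and 4226.5 on the E18.5 ventricles. The part of this in the ventricular changes was not tested. The summed cardiomyocyte markers (8 of 8 genes) reached 90166 to 103250 in the E10.5 and E11.5 samples, 88055 to 139638 in ventricles and 70132 to 124280 in atria. Lung and foregut genes were high on E13.5, E16.5 and E18.5 atrium 3 (up to 12543, summed over 6 genes, against at most 1322 on all other arrays), and liver genes on E12.5 atrium 2 (18589) and E16.5 ventricle 2 (10938).

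The windows of 250 bases before the RefSeq start sites (build GRCm38.p6) were searched for 3 short motifs on both strands. These were ACGTG, the core of the element bound by the hypoxia-inducible factors and part of the E-box CACGTG. The others were the core of the GC box, GGGCGG, and the site of the muscle factor MEF2, and neither contains ACGTG. At least 1 window was listed for 32 members. ACGTG occurred in 16 of the 32 (50%), against 18.5% of 27025 genes, GGGCGG in 20 (62.5%) against 35.4%, and the MEF2 site in 2 (6.25%, Pfkfb1 and Pgam2) against 3.42%. Some members have more than 1 window, and by window the ACGTG shares were 40% of 50 and 16.6% of 32851. Of the 16 members with ACGTG, 12 were lower in atria over the 5 ages, 2 higher and 2 not called, and of the 13 tested members without it 9 were lower, 1 higher and 3 not called. Of all 31 members 23 were lower and 3 higher, and of all probe sets tested 21.5% were lower and 20.9% higher. Letters in a window are a description and not a bound site.

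Windows are printed 5′ to 3′ on the strand of the gene for 3 members that carry ACGTG and were lower in atria, and for Pgam2, which carries the MEF2 match and was higher there. Capitals mark ACGTG or its complement CACGT, and in Pgam2 the MEF2 match. Hk2, encoding the hexokinase of muscle and other insulin-responsive tissue, has its window at chr6:82774455-82774704, minus strand. Slc16a3, encoding the lactate exporter MCT4, has its window at chr11:120948817-120949066, plus strand. Ldha, encoding the lactate dehydrogenase subunit that prevails in glycolytic tissue, has its window at chr7:46845554-46845803, plus strand, and its 5 matches fall at 3 places because CACGTG reads the same on both strands. Pgam2, encoding the muscle form of phosphoglycerate mutase, has its window at chr11:5803797-5804046, minus strand.
Hk2: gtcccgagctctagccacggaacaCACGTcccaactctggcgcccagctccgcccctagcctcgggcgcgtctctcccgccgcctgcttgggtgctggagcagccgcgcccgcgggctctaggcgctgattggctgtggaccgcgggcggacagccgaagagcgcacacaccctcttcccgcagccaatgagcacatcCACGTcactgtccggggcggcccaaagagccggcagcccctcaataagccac
Slc16a3: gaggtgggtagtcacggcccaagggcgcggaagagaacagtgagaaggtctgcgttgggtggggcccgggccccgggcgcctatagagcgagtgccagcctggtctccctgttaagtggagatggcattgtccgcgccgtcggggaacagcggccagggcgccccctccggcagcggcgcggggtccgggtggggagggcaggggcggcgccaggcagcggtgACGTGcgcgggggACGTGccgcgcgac
Ldha: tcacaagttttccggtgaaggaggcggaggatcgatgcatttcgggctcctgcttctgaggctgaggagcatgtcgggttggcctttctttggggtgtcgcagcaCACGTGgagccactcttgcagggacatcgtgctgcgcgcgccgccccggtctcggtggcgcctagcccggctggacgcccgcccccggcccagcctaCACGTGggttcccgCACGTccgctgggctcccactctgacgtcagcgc
Pgam2: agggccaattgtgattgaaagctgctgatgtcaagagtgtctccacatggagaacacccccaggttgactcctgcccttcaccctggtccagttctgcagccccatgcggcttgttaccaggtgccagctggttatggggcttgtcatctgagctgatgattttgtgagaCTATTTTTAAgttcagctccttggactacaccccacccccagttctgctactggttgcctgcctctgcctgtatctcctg

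Between E12.5 and E18.5 the glucose transporter genes Slc2a1 and Slc2a3 fell in both chambers, while the insulin-responsive transporter gene Slc2a4, the muscle isoform genes Pfkm and Eno3 and the glycogen genes Pygm, Pygb and Gbe1 rose in both. The sizes ran from a 3.73-fold fall (Slc2a3, atrium) to a 3.14-fold rise (Slc2a4, ventricle). In ventricles 11 of 31 members rose and 4 fell, where 12.7% of all probe sets tested rose and 16% fell. In atria 8 rose and 3 fell, with 12.6% and 11.7% of all probe sets. A change is called where limma's moderated test, two-sided and adjusted over all probe sets by Benjamini-Hochberg, gave an adjusted p below 0.05. The median log2 difference of the members was 0.06 in ventricles and -0.02 in atria, beside -0.05 and 0.01 over all probe sets. With each array centred on its median, 56.4% of all ventricular calls were rises, against 44.3% here, and the members' ventricular counts were the same. Without E12.5 atrium 1, 4 members rose in atria, beside 7.28% of all probe sets. Hk2 was then no longer called at a difference as large (0.34, and 0.32 with the array), and neither were Pfkm (0.30), Pygb (0.54) and Phka1 (0.28), whose differences were smaller. That array had the highest summed red cell genes of all (36623 over 6 genes, against 11702 and 22903 on the other E12.5 atrial arrays). Markers of other cells moved over the same days: in ventricles 5 of 6 fibroblast and 3 of 6 macrophage genes rose, and 3 of 5 red cell, 2 of 3 smooth muscle, 3 of 5 epicardial and 3 of 4 proliferation genes fell. In atria 3 of 6 fibroblast genes rose and 1 fell, 3 of 6 macrophage and 2 of 4 brown fat genes rose, and 5 of 5 red cell, 2 of 3 smooth muscle, 3 of 5 epicardial and 4 of 4 proliferation genes fell. Of the 8 cardiomyocyte genes 1 rose in ventricles and none was called in atria. The part of these in the members' changes was not tested. In RNA of whole chambers, fewer cells of a type and less RNA per cell cannot be told apart.

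Slc2a1 encodes GLUT1, the carrier of basal glucose uptake in most embryonic cells. Its intensities in ventricles were 5558, 4272 and 7995 at E12.5 and 2479, 2722 and 2789 at E18.5, and in atria 6988, 5696 and 5366 and 2713, 2739 and 2452. No array of E18.5 reached an array of E12.5 in either chamber. The fall was 2.15-fold in ventricles (log2 difference -1.11, SE 0.16, adjusted p = 7e-06) and 2.26-fold in atria (log2 difference -1.18, SE 0.16, adjusted p = 8.3e-06). The E10.5 samples read higher still, at 9241, 10029.9 and 10085. The summed red cell genes fell over the same days, from 2492 to 13239 down to 1398 to 1693 in ventricles. In atria they fell from 11702 to 36623 down to 2758 to 3138. Their part in the fall of Slc2a1 was not tested. Slc2a3 encodes GLUT3, a carrier of high affinity known from neurons and early embryos. It went from 1845, 2080.2 and 2785 to 716, 627 and 694 in ventricles and from 2399, 1779 and 1288 to 493, 491 and 406 in atria, again with no overlap. These were the largest falls among the members (log2 difference -1.68, SE 0.23, adjusted p = 2.9e-06 in ventricles; log2 difference -1.90, SE 0.23, adjusted p = 2.3e-06 in atria). The summed genes of neurons (10 of 10) lay between 810 and 1676 in both chambers at all ages. Of these 10 genes 7 passed the filter for testing, and their part in the Slc2a3 values was not tested.

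Slc2a4 encodes GLUT4, the carrier that insulin and contraction bring to the surface of muscle and fat cells. Ventricles read 576, 871 and 394 at E12.5, 1255, 1124 and 1417 at E16.5 and 1879, 2067 and 1673 at E18.5. The atria read 615, 511 and 626, 996, 682 and 748 and 1352, 1038 and 1024 on the same days. All E18.5 arrays lay above all E12.5 arrays of their chamber, and the ventricular E12.5 arrays were the most scattered. The rise was 3.14-fold in ventricles (log2 difference 1.65, SE 0.19, adjusted p = 3.2e-07) and 1.91-fold in atria (log2 difference 0.94, SE 0.19, adjusted p = 0.00058). The interaction contrast for the smaller atrial rise missed the threshold (log2 -0.71, SE 0.27, adjusted p = 0.13), and without E12.5 ventricle 2, which read 871, it passed it (-0.996, adjusted p = 0.016).

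**Figure D1:**
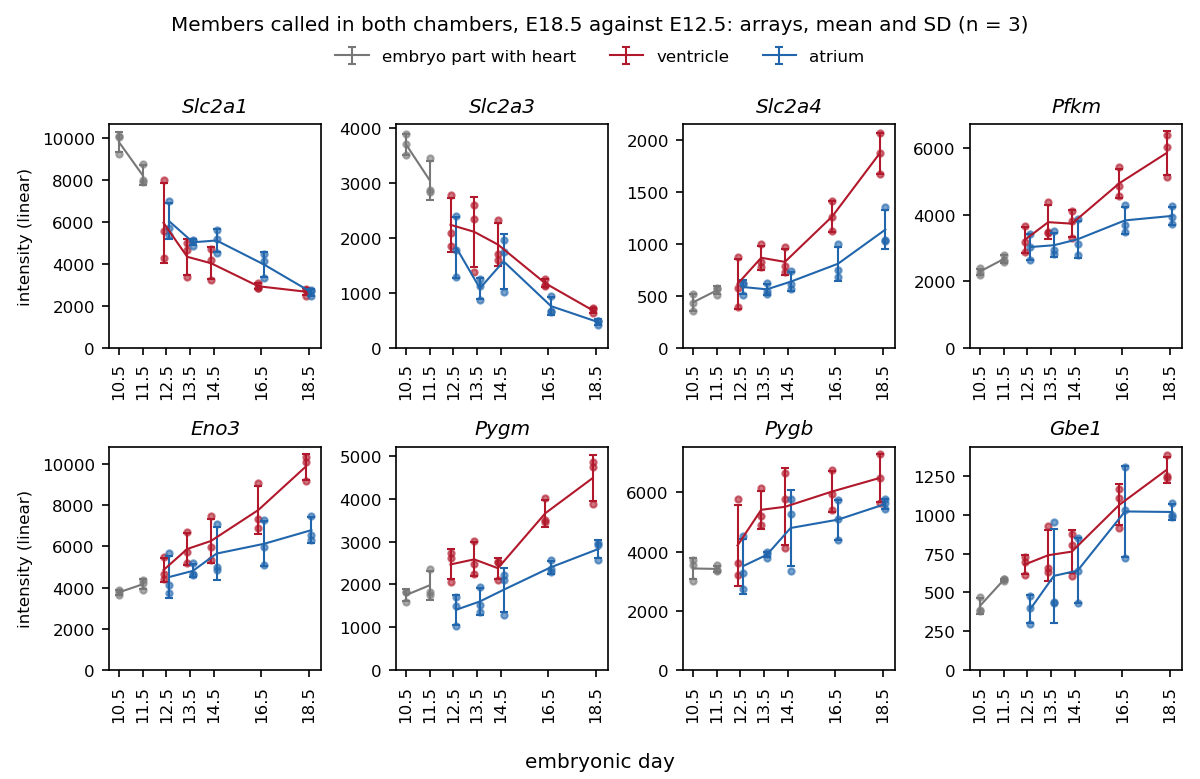
Linear intensity against embryonic day for the 8 members called in both chambers between E12.5 and E18.5; points are arrays, lines join group means and bars are SD (n = 3), grey for the embryo part with heart, red for ventricle, blue for atrium. Slc2a1 and Slc2a3 run down from E10.5 and the other 6 run up, with ventricular Slc2a4 reaching 1879, 2067 and 1673 at E18.5.

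Among the genes of glucose trapping and commitment, Pfkm rose in both chambers, Hk2 rose and Pfkl fell in atria, and the other members were not called. Pfkm encodes the muscle subunit of phosphofructokinase, the main control point of glycolysis. Its ventricular intensities were 3192, 3648 and 2867 at E12.5 and 6037, 6409 and 5134 at E18.5, a separated rise of 1.81-fold (log2 difference 0.85, SE 0.12, adjusted p = 7.4e-06). The atria went from 2651, 3021 and 3411 to 4259.6, 3919 and 3718 (log2 difference 0.39, SE 0.12, adjusted p = 0.02). That atrial call was lost with median centring (0.36, adjusted p = 0.10), with the compared groups alone (0.39, adjusted p = 0.052) and without the 5 atrial arrays with ventricular markers (0.34, adjusted p = 0.097). Pfkl, the liver-type subunit found in most tissues, read 4997, 5132 and 5361 and 4055, 4261 and 3523 in atria (log2 difference -0.39, SE 0.10, adjusted p = 0.0049), and its probe set without a suffix for shared transcripts gave -0.14 (adjusted p = 0.61). In ventricles its log2 difference was -0.20 (adjusted p = 0.14). Pfkp, the platelet-type subunit, differed by 0.03 in ventricles and 0.16 in atria, with adjusted p = 0.87 and adjusted p = 0.37. Its 2 further probe sets, both dimmer, went apart: 1 rose in both chambers (0.82, adjusted p = 0.015 in ventricles; 0.78, adjusted p = 0.023 in atria), and 1 fell in ventricles (-0.58, adjusted p = 0.019) and differed by 0.06 in atria. The course of Pfkp over time is therefore not settled by these probe sets.

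Hk2 read 1283, 1326 and 1175 in E12.5 atria and 1800.4, 1503 and 1461 in E18.5 atria (log2 difference 0.32, SE 0.11, adjusted p = 0.035). The ventricles read 2147, 2433 and 2328 and 3013, 2776 and 2534, also without overlap, and were not called (0.27, adjusted p = 0.078). The atrial call of Hk2 was lost without E12.5 atrium 1 or 3 or E18.5 atrium 1, and without the 5 atrial arrays (0.27, adjusted p = 0.085). Hk1, the hexokinase of most other tissues, differed by 0.05 in ventricles and -0.04 in atria. Its further probe set, which was dimmer, differed by 0.14 in ventricles and rose in atria (0.48, adjusted p = 0.012). Pfkfb2 and Pfkfb3 encode the enzymes that make and remove fructose 2,6-bisphosphate, the activator of phosphofructokinase; they are dim here (219 to 666 on the chamber arrays for Pfkfb3), were not called in either chamber, and their further probe sets pointed the other way in ventricles.

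From aldolase to pyruvate kinase, the muscle genes Eno3 and Pgam2 rose in ventricles, while Pgam1, the counterpart of Pgam2 in other tissues, fell there. Eno3 encodes the muscle enolase. In ventricles it went from 4414, 5483 and 4655 to 10091, 10339.9 and 9149, with no overlap (2.04-fold, log2 difference 1.03, SE 0.15, adjusted p = 9e-06). In atria it went from 3755, 4125 and 5657 to 7484, 6313 and 6553 (1.52-fold, log2 difference 0.61, SE 0.15, adjusted p = 0.0038). Eno2, the neuronal enolase, was dim: its ventricular values were 151, 165 and 180.1 at E12.5 and 81.6, 60.4 and 85.8 at E18.5 (log2 difference -0.98, SE 0.20, adjusted p = 0.00043). Only 3 of the 36 arrays exceeded the filter value of 171.8 for this gene, so its fall is a reading of dim values, and whether they lie above background is not known. The other 30 members exceeded it on all 36 arrays.

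Pgam2 read 4589, 4827 and 4435 in E12.5 ventricles and 7769, 8091 and 6162 in E18.5 ventricles (1.58-fold, log2 difference 0.66, SE 0.14, adjusted p = 0.00084). Its atrial values of 5071, 5589 and 7036 and 7477, 6969.6 and 7359 overlapped (0.31, adjusted p = 0.11). Pgam1, the form of brain and most other tissues, went from 9004, 8538 and 9661 down to 7192, 6739.9 and 6042 in ventricles (log2 difference -0.45, SE 0.09, adjusted p = 0.00043). Aldoc, the brain-type aldolase, was the only aldolase gene called over time: ventricles read 548, 1242 and 456 at E12.5 and 1109, 1137 and 1176 at E18.5 (log2 difference 0.74, SE 0.25, adjusted p = 0.024). The 2 groups overlapped through E12.5 ventricle 2. Leaving out E12.5 ventricle 3, one of the low arrays, brought the difference to 0.46 (adjusted p = 0.21), and leaving out E12.5 ventricle 1 brought it to 0.58 (adjusted p = 0.13). The 5 bright genes of the common trunk, Aldoa, Tpi1, Gapdh, Pgk1 and Pkm, were not called in either chamber, with log2 differences from -0.07 to 0.06 in ventricles and from -0.30 to 0.03 in atria.

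Gapdh was read from a control probe set of the array design, since its other probe sets share symbols, and its values ran from 11702 to 24237, up to 91.7% of the brightest value on any array. The brightest genes moved together from array to array. On E14.5 ventricle 1 Gapdh read 24237 and Pgk1 18767, against 13613 and 11575 on ventricle 2 of that day. The intensity exceeded by the brightest 0.5% of probe sets was 12656 on that array and 8524 to 12117 on the other 35. The part of this array brightness in the values of Gapdh, Pgk1, Aldoa, Tpi1 and Ldha was not tested. With 3 arrays a group small differences in these genes were not detectable, and the 95% interval of the ventricular Gapdh difference ran from -0.41 to 0.26.

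Of the 4 lactate genes, Ldhb and Slc16a1 rose in ventricles, and Ldha and Slc16a3 were not called over time. Ldhb encodes the heart-type subunit of lactate dehydrogenase, the prevailing form of oxidative tissue. Ventricles read 6667, 7789.9 and 7820 at E12.5 and 11833, 11962 and 9858 at E18.5, all higher at the later day (1.51-fold, log2 difference 0.59, SE 0.15, adjusted p = 0.003). Atria read 4765, 5945 and 7199 and 8479, 7502 and 7211 (0.39, adjusted p = 0.053), a difference that passed the threshold with quantile normalization (0.49, adjusted p = 0.0013). Slc16a1 encodes MCT1, a carrier that moves lactate either way. It went from 4605, 5233 and 4815 to 5882, 7054 and 6118 in ventricles (log2 difference 0.38, SE 0.11, adjusted p = 0.01), and the call was lost without E12.5 ventricle 1 (0.33, adjusted p = 0.052) or E18.5 ventricle 2 (0.30, adjusted p = 0.074). Slc16a3 read 3359, 3751 and 3428 in E12.5 ventricles and 2551, 2357 and 1972 at E18.5; the arrays did not overlap and the test missed the threshold (log2 difference -0.62, SE 0.25, adjusted p = 0.069). Ldha differed by -0.03 in atria (adjusted p = 0.91), and quantile normalization turned that value to 0.16 (adjusted p = 0.032).

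Of the 7 glycogen genes none fell: 4 rose in ventricles and 4 in atria, Pygm, Pygb and Gbe1 in both, Pygl in ventricles and Phka1 in atria. Of all probe sets tested 12.7% rose and 16% fell in ventricles, and 12.6% rose and 11.7% fell in atria. Pygm encodes the muscle glycogen phosphorylase, which frees glucose units from glycogen. Ventricles went from 2607, 2725 and 2066 to 4734, 4847 and 3867 (1.82-fold, log2 difference 0.86, SE 0.18, adjusted p = 0.00052), and atria from 1026, 1494 and 1707 to 2929.7, 2976 and 2576 (2.03-fold, log2 difference 1.02, SE 0.18, adjusted p = 0.00013). The arrays of the 2 days did not overlap in either chamber. Gbe1 encodes the branching enzyme of glycogen synthesis. It read 730.1, 611 and 698 and 1235, 1386 and 1249.7 in ventricles (log2 difference 0.91, SE 0.24, adjusted p = 0.0044), and 299, 399 and 478 and 1074, 998 and 984 in atria (2.57-fold, log2 difference 1.36, SE 0.24, adjusted p = 0.00013), the largest atrial rise of any member.

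Pygb, the brain and fetal phosphorylase, read 3611, 5786 and 3221 in E12.5 ventricles and 6492, 7306 and 5654 at E18.5 (log2 difference 0.66, SE 0.19, adjusted p = 0.011). One E12.5 array, ventricle 2, lay within the later range. The ventricular call was lost without E12.5 ventricle 1 (0.58, adjusted p = 0.058), E12.5 ventricle 3 (0.49, adjusted p = 0.092) or E18.5 ventricle 2 (0.57, adjusted p = 0.058). The atrial values were 2723, 3278 and 4532 and 5627, 5768 and 5423 (log2 difference 0.70, SE 0.19, adjusted p = 0.0082), and without E12.5 atrium 1 the atrial difference was 0.54 (adjusted p = 0.086). Pygl, the liver phosphorylase, went from 1422, 1679 and 1765 to 2398, 2355 and 2379 in ventricles (log2 difference 0.55, SE 0.12, adjusted p = 0.001). Phka1 encodes the muscle regulatory subunit of phosphorylase kinase. Its atrial rise from 293, 519 and 676 to 689, 762 and 725 (log2 difference 0.61, SE 0.17, adjusted p = 0.011) rested on E12.5 atrium 1, without which it was 0.28 (adjusted p = 0.20). Gys1, the muscle glycogen synthase, and Ugp2, which makes the UDP-glucose that glycogen synthase uses, were not called in either chamber (0.31 and 0.24 in ventricles, -0.06 and -0.01 in atria). Both passed the threshold in ventricles when the probe sets of each gene were averaged (0.51, adjusted p = 0.0049 for Gys1; 0.27, adjusted p = 0.025 for Ugp2).

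Whether the change over time differed between the chambers was tested by the interaction contrast, and 0 of 31 members passed it with limma, where 3.78% of all probe sets did. At an unadjusted p below 0.05 there were 7 members, beside 18.3% of all probe sets. The lowest p-values among the members were those of Slc16a1 (log2 -0.50, adjusted p = 0.064), Eno2 (0.85, adjusted p = 0.085) and Slc2a4 (-0.71, adjusted p = 0.13). A negative sign means that the atrial log2 change was below the ventricular one. For Slc16a1 these were -0.12 in atria, not called, and 0.38 in ventricles. With limma's array weights 5 members passed, beside 17.4% of all probe sets: Slc2a4, Pfkm, Eno3, Slc16a1 and Pygl, all with the lower value in atria. Median centring shifted the median of all interaction values by -0.11, and the share of higher ones among all calls from 70.3% to 59.3%. A member called in 1 chamber alone is therefore not shown to differ between chambers.

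**Figure D2:**
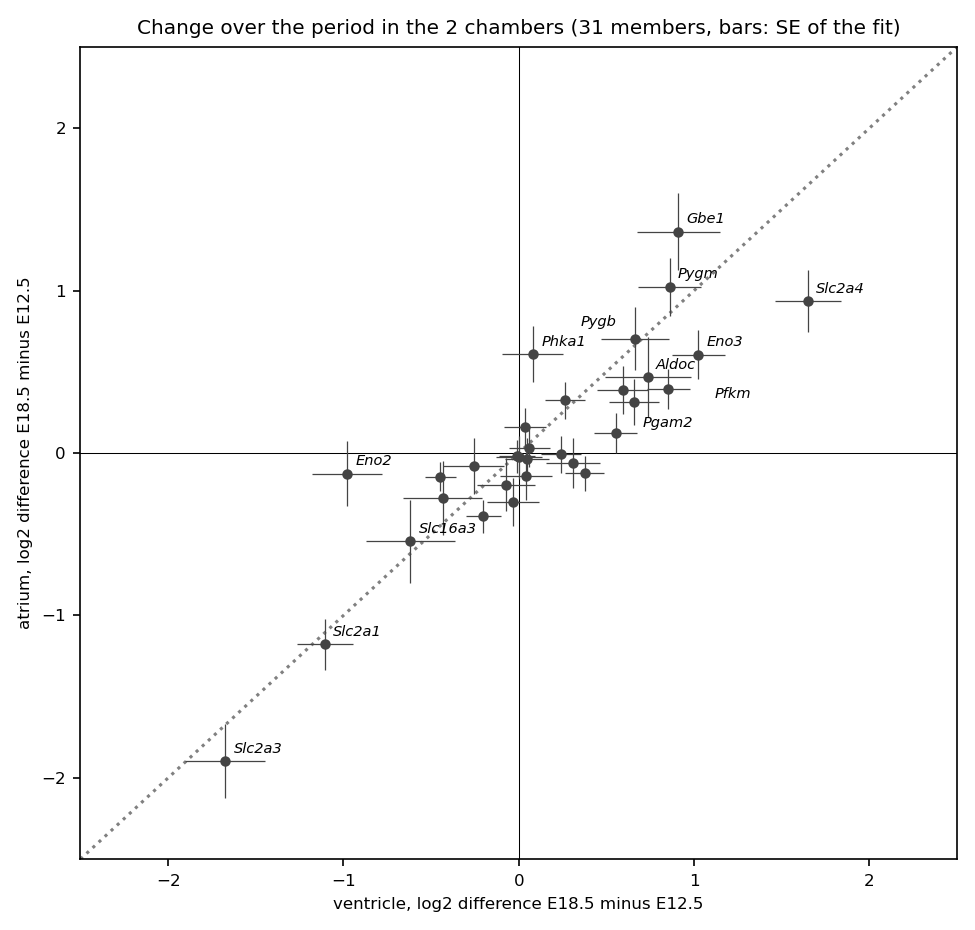
Log2 difference between E18.5 and E12.5 in ventricles (horizontal) and atria (vertical) for the 31 members; bars are SE of the fit and the dotted line marks equal change. Slc2a1 and Slc2a3 lie at the lower left near the line, Slc2a4 (1.65 and 0.94) to the right of it and Gbe1 (0.91 and 1.36) above it.

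Muscle and more widely expressed isoforms were compared as log2 ratios within each array, which show unequal change of 2 probe sets and not which isoform is the more abundant. Of 14 pairs planned 13 were computed; the pair of Eno3 with Eno1 was not analysed here. The change of the ratio from E12.5 to E18.5, averaged over the chambers, was tested by an exact permutation test within chambers over 400 arrangements (two-sided, smallest p 0.005), adjusted over the 13 pairs. The ratio rose for 11 pairs and fell for 1. Slc2a4 gained 2.44 over Slc2a1 (ventricles 2.76, atria 2.11) and 3.08 over Slc2a3, the largest shifts of all. In the enzymes, Pfkm gained 0.92 over Pfkl and 0.53 over Pfkp, Pgam2 0.78 over Pgam1, and Ldhb 0.50 over Ldha. These pairs all stood at the smallest p (exact permutation p = 0.005, adjusted p = 0.0081). So did Eno3 over Eno2 (log2 1.37), but Eno2 is dim, above the filter on 3 of 36 arrays. The size of that shift therefore rests on values near the lower end of the arrays' range. The gain of Pfkm over Pfkp depends on the Pfkp probe set. In ventricles the 2 further Pfkp probe sets changed by 0.82 and -0.58, beside 0.85 for Pfkm. In atria they changed by 0.78 and 0.06, beside 0.39 for Pfkm. Slc16a1 gained 0.71 over Slc16a3 (exact permutation p = 0.005), Pygm 0.60 over Pygl (0.01), Hk2 0.29 over Hk1 (0.01) and Pygm 0.26 over Pygb (0.03). The gain of Hk2 over Hk1 also depends on the probe set. The further Hk1 probe set changed by 0.14 in ventricles and 0.48 in atria, beside 0.27 and 0.32 for Hk2. Aldoa lost 0.65 against Aldoc (log2 -0.65, exact permutation p = 0.045, adjusted p = 0.049), so with the chosen probe sets the aldolases went against the other pairs. The ventricular call of Aldoc was itself lost without E12.5 ventricle 1 or 3. Of the 4 further Aldoa probe sets, 1 rose in ventricles (0.50, limma adjusted p = 0.0019), and it differed by 0.31 in atria. The Pfkfb2 to Pfkfb3 ratio differed by 0.19 (exact permutation p = 0.34).

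Ratios also separated the chambers for 9 of the 13 pairs (permutation test within ages, 100000 resamples, smallest p 1e-05). Relative to its partner, Slc16a1 over Slc16a3 was 1.09 higher in atria, Pfkfb2 over Pfkfb3 0.77, Pgam2 over Pgam1 0.56, Aldoa over Aldoc 0.50 and Pfkm over Pfkp 0.44. Lower in atria were Slc2a4 over Slc2a1 (-0.68), Hk2 over Hk1 (-0.39), Pygm over Pygl (-0.36) and Pygm over Pygb (-0.36). The direction was thus towards the muscle or heart form at some steps and away from it at others. The same pairs were called without the 5 atrial arrays with ventricular markers, with values from -0.72 for Slc2a4 over Slc2a1 to 1.28 for Slc16a1 over Slc16a3. The further Hk1 probe set differed by -0.68 between chambers, beside -0.80 for Hk2, so the size of the Hk2 to Hk1 value depends on the probe set.

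**Figure D3:**
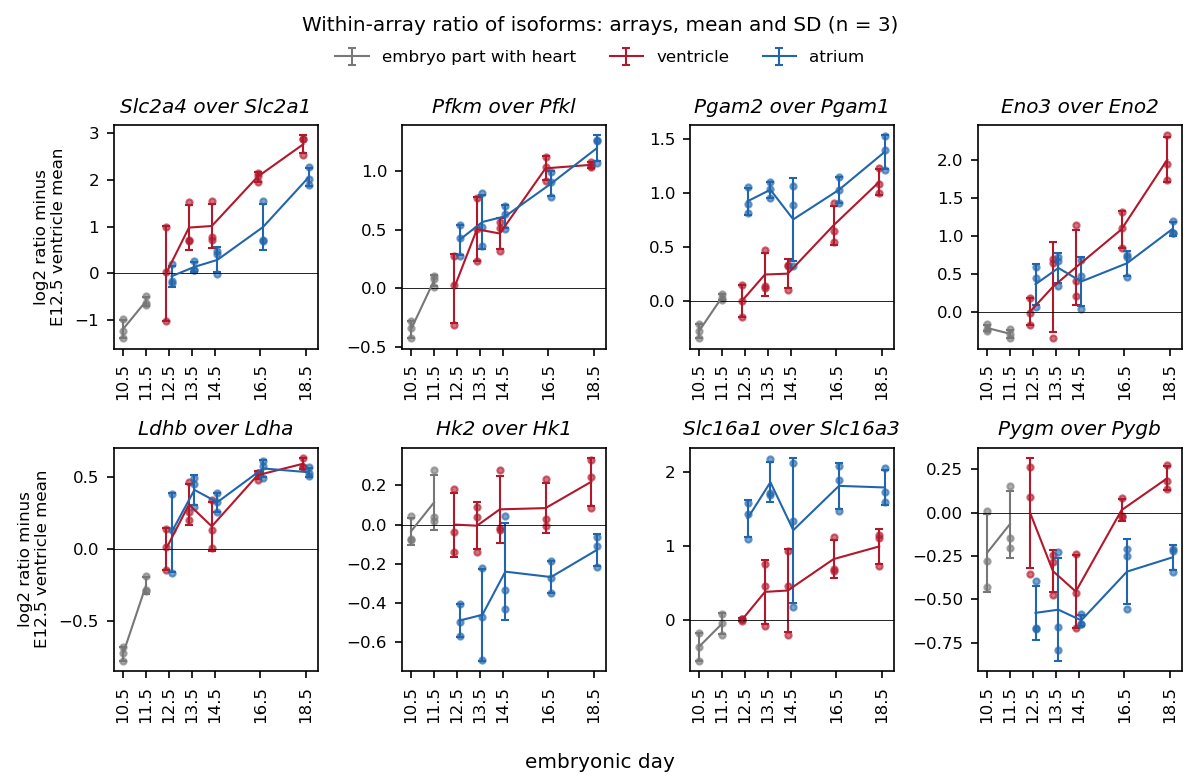
Within-array log2 ratio of 8 isoform pairs against embryonic day, set to 0 at the mean of E12.5 ventricles; points are arrays, lines join means and bars are SD (n = 3), coloured by tissue as in the key. All 8 rise from E12.5 to E18.5, by 2.44 for Slc2a4 over Slc2a1 and by 0.26 for Pygm over Pygb, and Slc16a1 over Slc16a3 has the higher mean in atria at all 5 ages.

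Most of the set differed between the chambers. Averaged over the 5 ages, 23 of 31 members were lower in atria than in ventricles, 3 were higher and 5 were not called, while 21.5% of all probe sets tested were lower and 20.9% higher. The median log2 difference was -0.33 for the members and -0.01 for all probe sets. The lower genes ran from Hk2 (-0.80) and Pfkp (-0.74) at the entry to Pkm (-0.42), Ldha (-0.39) and Slc16a3 (-1.28) at the exit. Without the 5 atrial arrays with ventricular markers 24 members were lower and 3 higher, beside 20.2% and 20.9% of all probe sets, and the 26 called here were all called again in the same direction. Of the 26 calls, 24 held under every alternative and every left-out array. Markers of other cells also differed between the chambers. In atria 5 of 6 fibroblast genes, 5 of 6 macrophage genes, 4 of 5 epicardial genes, 3 of 5 red cell genes, 2 of 5 liver genes, 2 of 6 lung genes and 2 of 7 skeletal muscle genes tested were higher and none lower. Of the endothelial genes 3 of 5 were lower and 1 higher, of the brown fat genes 2 of 4 lower and 1 higher, and of the cardiomyocyte genes 3 of 8 lower and 1 higher. Of 3 smooth muscle genes 2 were higher and 1 lower, of 7 neural genes 2 higher and 1 lower, and of 4 genes of proliferation 2 were lower. Their part in the chamber difference was not tested.

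Taken singly, E12.5 had 10 members lower in atria, where 5.27% of all probe sets were. E13.5 had 14, beside 6.27% of all probe sets, and 9 without ventricle 2 or atrium 3 of that day. The 5 members of E14.5, beside 2.38%, were the fewest, and 2 of its 3 atrial arrays were those with high ventricular markers. Its count was 9 without the 5 such arrays, 9 without atrium 2 of that day alone, 3 without ventricle 1, ventricle 2 or atrium 1, and 1 without atrium 3. E16.5 had 11, beside 8.32%, and 3 to 6 when ventricle 2 or 3 or atrium 1 or 3 of that day was left out. E18.5 had the most, 18, beside 8.53%. Without the 3 arrays with lung genes the counts were 8 for E13.5 and 3 for E16.5. For these counts with arrays left out, the share of all probe sets is not given. They therefore do not show whether the members moved apart from the other probe sets. In sign, 24 of 31 members had a lower atrial mean at all 5 ages, beside 17.8% of all probe sets. Hk2, Pfkp, Pkm and Slc16a3 were called lower at each of the 5 ages, as were 0.653% of all probe sets.

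Hk2 and Pfkp were the 2 members for which all 15 atrial arrays lay below all 15 ventricular arrays, which held for 0.334% of all probe sets. Hk2 spanned 1944 to 3013 with a median of 2287 in ventricles and 983 to 1800.4 with a median of 1326 in atria. The difference was 1.74-fold (log2 difference -0.80, SE 0.05, adjusted p = 2.2e-13), and -0.91 without the 5 atrial arrays. On the 3 E14.5 atrial arrays, Hk2 read 1599, 1571 and 1092, the first 2 being those with ventricular markers. Pfkp spanned 3039 to 4322 with a median of 3737 in ventricles and 1647 to 2813 with a median of 2189 in atria (1.67-fold, log2 difference -0.74, SE 0.05, adjusted p = 3.7e-12). Slc16a3, the gene of the lactate exporter MCT4, had the largest difference of all members at 2.43-fold (log2 difference -1.28, SE 0.11, adjusted p = 2.2e-10). Ventricles spanned 1972 to 4045 with a median of 2551 and atria 736 to 2451 with a median of 1141, and the chambers overlapped at E14.5, where atria read 2451, 1566 and 841. Without the 5 atrial arrays the Slc16a3 difference was -1.48.

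In the common trunk 3 of the 5 genes, Pkm, Tpi1 and Aldoa, were lower in atria, by smaller amounts. Pkm, the pyruvate kinase of muscle and embryonic tissue, spanned 8275 to 11368 with a median of 8872 in ventricles and 5769.7 to 8431 with a median of 6902 in atria (log2 difference -0.42, SE 0.05, adjusted p = 1.2e-08). Ldha spanned 11996 to 16733 with a median of 13062 and 8595 to 14234 with a median of 10072 (log2 difference -0.39, SE 0.06, adjusted p = 4.2e-06). Tpi1, which interconverts the 2 triose phosphates, differed by -0.36 and Aldoa, the muscle-type aldolase, by -0.21 (adjusted p = 0.0094). Hk1 differed by -0.41, Pfkl by -0.43, Pgam1 by -0.33 and Ldhb by -0.31, each with SE between 0.04 and 0.07. Gapdh (-0.12, adjusted p = 0.19) and Pgk1 (-0.15, adjusted p = 0.059) had the same sign and were not called. Pgk1 was called lower without the 5 atrial arrays (-0.21, adjusted p = 0.0070) and with the mean of its probe sets (-0.42, adjusted p = 1.2e-07).

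Of the genes that rose with age in either chamber, Pgam2 was higher in atria, Phka1 was not called and the others were lower, among them Slc2a4 by -0.47, Pfkm by -0.30, Eno3 by -0.29, Pygm by -0.63, Pygb by -0.27, Pygl by -0.27, Gbe1 by -0.37 and Aldoc by -0.72 on the log2 scale. For some of them the gap differed among ages. Slc2a4 showed a gap of -0.00 at E12.5 and -0.72 at E18.5, and Pfkm -0.10 and -0.56. Gbe1 ran the other way, from -0.79 to -0.34. None of these trends passed the interaction test given above. Gys1 differed by -0.37 over the ages and by -0.77 at E18.5, where ventricles read 2038, 2237 and 1918 and atria 1209, 1155 and 1239. Slc2a3 was lower by -0.54, Pfkfb3 by -0.50 and Slc16a1 by -0.19.

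Higher in atria were Slc2a1 (log2 difference 0.21, SE 0.07, adjusted p = 0.018), Pgam2 (log2 difference 0.24, SE 0.06, adjusted p = 0.0031) and Pfkfb2 (log2 difference 0.27, SE 0.08, adjusted p = 0.0055). Slc2a1, the GLUT1 gene, had its widest gap at E16.5, with 2854, 2833 and 3078 in ventricles and 3296, 4126 and 4443 in atria, and none at E18.5 (-0.02). Its call was lost when E14.5 was left out of the mean (0.17, adjusted p = 0.085). GLUT1 is also known from red cells of the embryo, and the summed red cell genes were 2758 to 36623 in atria and 1398 to 13239 in ventricles; their part in the Slc2a1 value was not tested. Pgam2 read 5071, 5589 and 7036 in E12.5 atria against 4589, 4827 and 4435 in ventricles, and the chambers met at E18.5 (log2 difference 0.34 at E12.5). Skeletal muscle genes, another known source of Pgam2, summed to 874 to 3465 in atria and 662 to 1406 in ventricles over 10 genes, and their part was not tested. Pfkfb2 lost its call when its 3 probe sets were averaged (0.19, adjusted p = 0.081). Ugp2 (0.06), Phka1 (-0.01) and Eno2 (-0.10) were not called.

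**Figure D4:**
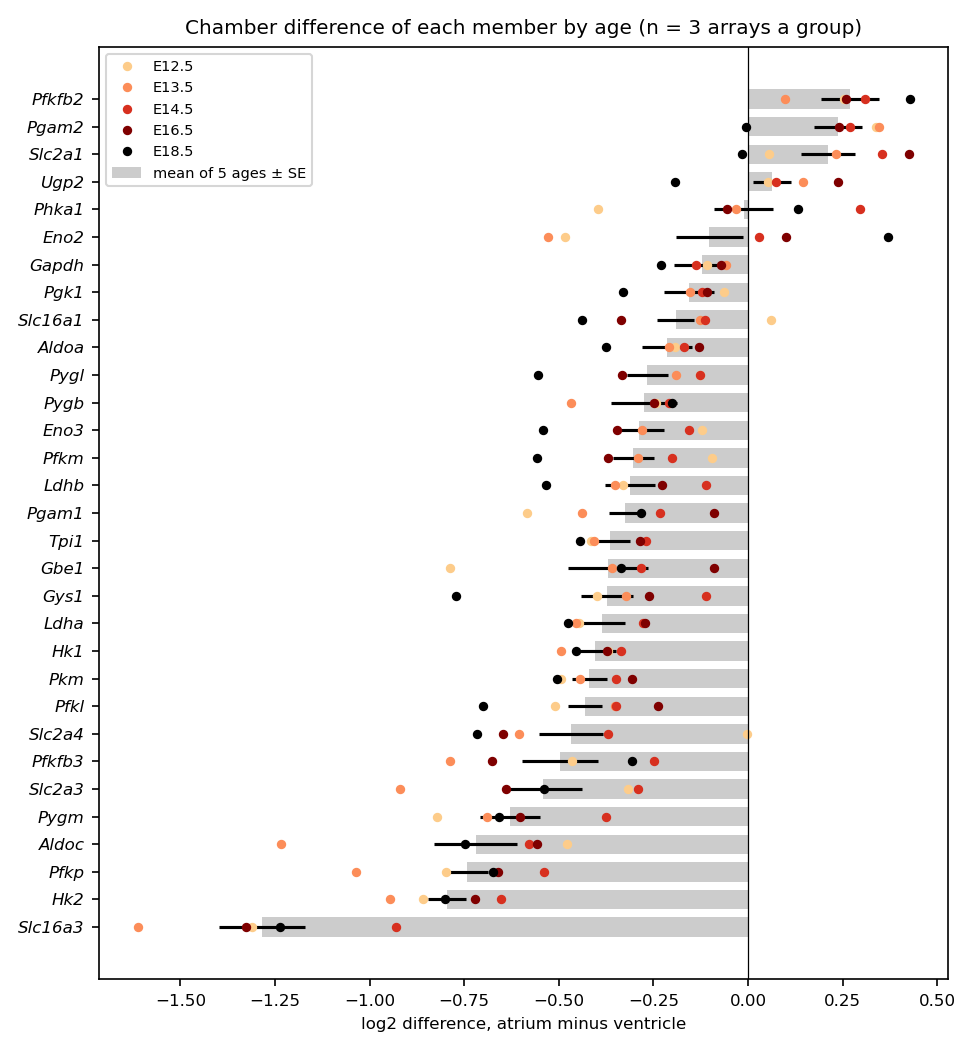
Log2 difference of atria minus ventricles for each of the 31 members; grey bars are the mean of 5 ages with its SE and dots are the single ages (n = 3 arrays a group). Most bars lie left of 0, Slc16a3 farthest at -1.28, and Slc2a1, Pgam2 and Pfkfb2 lie to the right, up to 0.27.

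**Figure D5:**
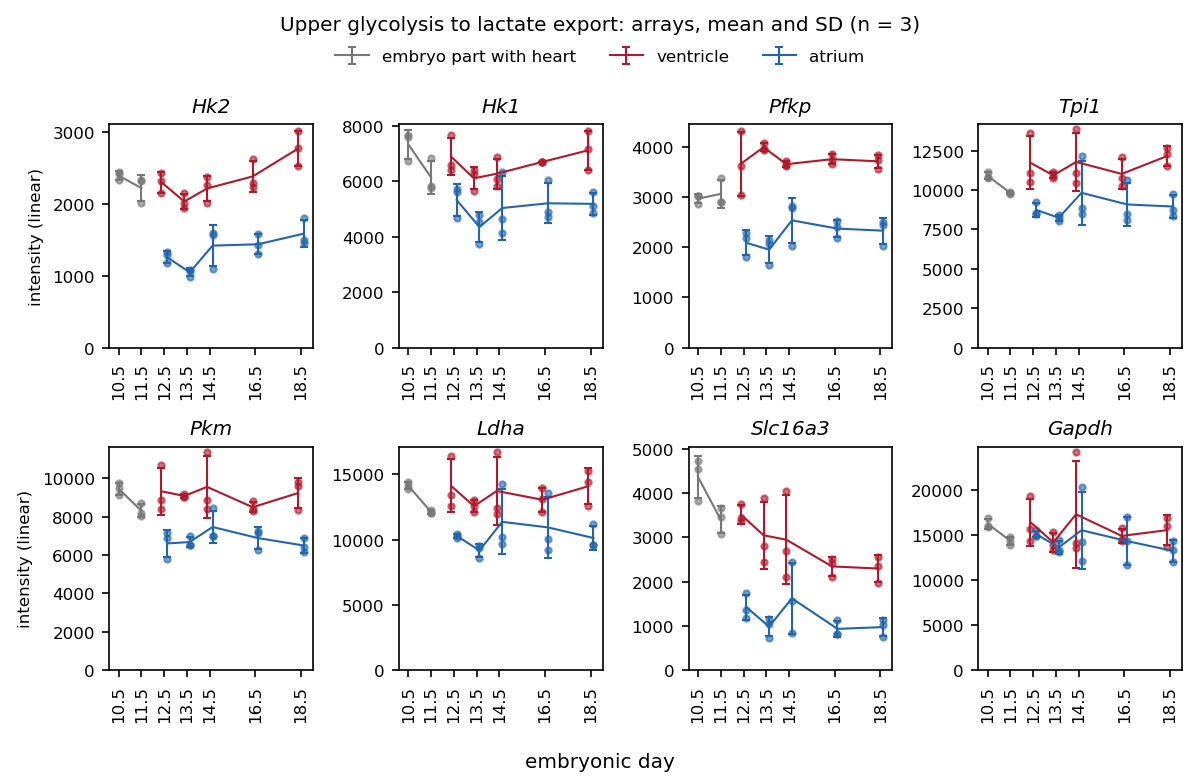
Linear intensity against embryonic day for 8 members from hexokinase to lactate export; points are arrays, lines join group means and bars are SD (n = 3), coloured by tissue. Atrial Hk2, Pfkp and Slc16a3 means stay below the ventricular means at all 5 ages, whereas the chambers overlap for Gapdh at each age.

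The samples of E10.5 and E11.5 hold more than the heart, and their values are given beside those of the chambers. Slc2a3 read 3501, 3713 and 3892 at E10.5 and 2864, 2825 and 3458 at E11.5, above all chamber arrays. Gbe1 read 387, 471 and 383 and 584, 584 and 574, and Slc2a4 356, 516 and 435 and 569.7, 507 and 578. From E10.5 to E11.5, 0 of 31 members were called with limma (1.16% of all probe sets), and 2 had an unadjusted p below 0.05 (12.3% of all probe sets), Pgam1 (log2 -0.23) and Hk1 (-0.26). With the 6 arrays of these 2 groups fitted alone, 3 rose and 10 fell, beside 4.1% and 4.05% of all probe sets. The mean of both E12.5 chambers against E11.5 gave 0 called members (0.935% of all probe sets) and 9 at an unadjusted p below 0.05 (12.6% of all probe sets), led by Hk2 (-0.38, adjusted p = 0.055), Slc2a1 (-0.48, adjusted p = 0.092) and Slc2a3 (-0.62, adjusted p = 0.13). In this comparison the step in age and the change of dissection cannot be told apart. For Hk2 the atria of E12.5 read 1283, 1326 and 1175, below all E11.5 arrays, while the E12.5 ventricles read 2147, 2433 and 2328 against 2009, 2334 and 2321 at E11.5.

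Around the members, 79 further genes of uptake, lower glycolysis, pyruvate dehydrogenase, shuttles, glycogen and the pentose phosphate path were listed, and 65 were tested. In ventricles 21 rose and 7 fell, beside 12.7% and 16% of all probe sets tested. In atria 17 rose and 9 fell, beside 12.6% and 11.7%. Over the ages 29 were lower and 9 higher in atria, beside 21.5% and 20.9%. The same shares stand beside the counts of the single lists below. The pyruvate dehydrogenase list, the complex that turns pyruvate into acetyl-CoA inside mitochondria with its regulators, was the fullest: of 12 genes 8 rose and 1 fell in ventricles, 7 rose and 1 fell in atria, and 10 were lower and 1 higher in atria. Mpc1, a subunit of the mitochondrial pyruvate carrier, went from 1821, 2671 and 2004 to 6555, 7549 and 6352 in ventricles (3.17-fold, log2 difference 1.66, SE 0.14, adjusted p = 1.8e-09) and from 2604, 2213 and 2641 to 4974, 4665 and 4746 in atria (1.93-fold, log2 difference 0.95, SE 0.14, adjusted p = 1.9e-05). The complex is switched off by the kinase genes Pdk1 to Pdk4 and on by the phosphatase gene Pdp1, and genes of both kinds rose in ventricles, Pdk1 by 0.62, Pdk2 by 1.12 and Pdp1 by 1.09 on the log2 scale. Pdk3 fell in both chambers (-0.81 in ventricles, -0.47 in atria), and Pdk4 was not called in ventricles (0.29) and rose in atria (0.87). In the list of the glycerol 3-phosphate and malate-aspartate shuttles, 8 of 10 genes were lower in atria, most of all the aspartate-glutamate carrier gene Slc25a13 (log2 difference -1.32, SE 0.08, adjusted p = 1.3e-13).

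Of the red cell enzymes in these lists, Bpgm, which makes 2,3-bisphosphoglycerate, fell in ventricles (-1.54, adjusted p = 0.016) and atria (-2.34, adjusted p = 0.00075) and was higher in atria over the ages (1.22, adjusted p = 3.5e-05). Pklr, the pyruvate kinase of liver and red cells, fell in atria (-1.35, adjusted p = 0.001), from 1444.5, 603 and 347 to 253, 292 and 219. All 5 red cell genes tested also fell in atria, from summed values of 11702 to 36623 at E12.5 to 2758 to 3138 at E18.5, and their part in these changes was not tested. Pgm2l1, of glucose 1,6-bisphosphate synthesis (-1.19), and Taldo1, the transaldolase of the pentose phosphate path (-1.03), fell in atria as well. Pgm2l1 went from 1105, 939 and 299.5 to 271, 326 and 269.9, so E12.5 atrium 3 lay within the later range. Taldo1 went from 4035, 3549.9 and 1809 to 1400, 1412.5 and 1512. For Pklr, Pgm2l1 and Taldo1, E12.5 atrium 1, with the highest red cell genes, read highest of its group. Atrium 2, with high liver genes, read next. How far these falls rest on those arrays is not given here.

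For 16 members there were 34 further tested probe sets, of which 29 had the sign of the chosen one for the ventricular change, 22 for the atrial change and 34 for the chamber difference. The sets that differed in sign belonged to members not called in that comparison. Calls differed more often. In ventricles 6 further probe sets were called where the chosen one was not (2 of Pfkp, 1 of Aldoa, 1 of Gys1 and 2 of Ugp2), and 1 of Slc2a3 was not called where the chosen one was. In atria there were 4 of the first kind (Hk1, Pfkp and 2 of Ldhb) and 3 of the second (2 of Pfkl and 1 of Phka1). Between chambers there were 5 (2 of Pgk1, 1 of Phka1 and 2 of Ugp2) and 3 (Slc2a1 and 2 of Pfkfb2). Intensities of different genes are not compared in level, because a probe set's brightness depends on its own probes.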

How the data were processed

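The authors deposited 1 linear intensity per probe set and array for 36 Affymetrix arrays. The column trimmed means (2% trimmed) are all 500, and the sources used here do not give how the authors made these intensity values from scans. Of 45101 probe sets, 61 controls were left out, and the 3 Gapdh controls were kept. Gene names came from the platform annotation: 34948 probe sets carry 1 gene, 932 several and 9211 none, and only the first kind was named. The test took the 27259 probe sets that exceeded 171.8, the overall median, on 3 or more arrays. The log2 of the intensity plus a pseudocount of 17 was fitted with limma 3.58.1 in R 4.3.3 as 12 group means (24 residual degrees of freedom, moderated variances with an intensity trend), so low genes have understated fold changes. P-values were two-sided and adjusted by Benjamini-Hochberg over all tested probe sets. The fit was tested on simulated data. Isoform ratios were tested by permutation of arrays within chambers or ages. The members and lists were chosen with earlier results of these data known. All members were to be named, with the largest called changes in full, and of the further genes those called with a log2 change of at least 1, up to 6 per comparison. Promoter sequences came from RefSeq tables (GRCm38.p6). Alternatives covered normalization, pseudocount, filter, trend, weights, probe set choice, replicate block and each array left out. No unmatched columns of other samples were used.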

Additional observations from a re-analysis of the deposited data

Results flagged for a closer look

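The interaction test called 2 of the 65 further pathway genes and 0 of the 31 members, beside 3.78% of all probe sets. A count of 2 in 65 is not above that share, so it does not set these lists apart. For these 2 genes, the main fit called an unequal change of ventricles and atria between E12.5 and E18.5, with adjusted p near the threshold. Whether either call held under the alternatives is not given here. Over all probe sets, median centring left 252 higher and 173 lower interaction calls, against 724 and 306 in the main fit. Mpc1, a subunit of the mitochondrial pyruvate carrier, rose in both chambers and by less in atria (interaction -0.7152 on the log2 scale, limma adjusted p = 0.035). Phkg2, a catalytic subunit of phosphorylase kinase known from liver and testis, fell in ventricles by 0.43 and its interaction was 0.4235 (limma adjusted p = 0.046).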

How the results depend on the processing

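Counts over all probe sets moved by more than 1.5 times as follows, and the cause was not tested. With probe sets averaged per gene, which tests fewer features, 4980 were called in ventricles (7834 as reported), 4250 in atria (6611), 630 for the interaction (1030) and 7317 between chambers (11570). The stricter filter left 7319 between chambers. Array weights gave 12642 in atria, 4738 for the interaction, 2417 for E11.5 against E10.5 (315) and 2908 for E12.5 against E11.5 (255). The compared groups alone gave 4050, 407, 2222 and 114 for the same 4, and median centring 425, 123 and 165 for the last 3. The interaction fell to 489 without the 3 arrays with lung genes, and E12.5 against E11.5 reached 457 without the 5 atrial arrays. Leaving out single arrays gave 3816 to 7410 in atria, 452 to 2014 for the interaction, 61 to 499 and 40 to 376 for the last 2; the lowest came without E12.5 atrium 1 (both) and E11.5 sample 2 (both), the highest interaction count without E12.5 atrium 3.

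Among the members, the atrial rises were 5 with the compared groups alone (8 as reported) and 4 to 9 without single arrays, 4 without E12.5 atrium 1. The atrial falls were 7 with array weights. The interaction (0 as reported) reached 1 higher with quantile normalization and 0 to 1 without single arrays, and among lower values 1 with the stricter filter, 1 without the 5 atrial arrays, 5 with weights and 0 to 1 without single arrays. E11.5 against E10.5 gave 3 higher and 10 lower with the compared groups alone and 1 lower with weights. E12.5 against E11.5 gave 2 higher and 5 lower with weights, and lower 1 with quantile normalization, 1 with the stricter filter, 2 with averaged probe sets, 2 without the 5 atrial arrays and 0 to 1 without single arrays.

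Members lower in atria at E12.5 were 3 with the compared groups alone (10 as reported). At E13.5 they were 8 without the lung arrays (14 as reported) and 9 to 14 without single arrays. At E14.5 (5 as reported) they were 1 with median centring, 3 without a filter, 0 with the compared groups alone, 3 without the trend, 3 with weights, 9 without the 5 atrial arrays and 1 to 9 without single arrays. At E16.5 (11 as reported) they were 3 with median centring, 5 without a filter, 7 without the trend, 3 without the lung arrays, 5 without the liver arrays and 3 to 13 without single arrays. The member counts of this section stand without the share of all probe sets for the same direction and setting. They therefore do not show whether the members moved apart from the other probe sets.

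Of single values, 2 turned sign: Ldha in atria with quantile normalization (0.1602), and the chamber ratio of Aldoa to Aldoc (-0.323) against the Aldoc probe set without a suffix. That probe set averages 11.1 and was too dim to be tested, so its ratio says nothing of the pair. Over all alternatives, 12 of 15 ventricular calls, 6 of 11 atrial calls and 24 of 26 chamber calls held. Replicate numbers did not pair the samples: of 15 pairs of the same age and number, 1 had a correlation above 0.1 (range -0.335 to 0.159). With the replicate block the interaction count was 242, and the members lower in atria were 8, 2 and 4 for E13.5, for E14.5 and for E16.5; it moved no other count of calls by over 1.5 times.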
